A study of Homo sapiens with 9 samples.

Results

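Small RNA host lncRNAs are long noncoding RNAs whose introns or exons hold small RNAs. Members were taken by name, as the genes whose GENCODE symbol is SNHG followed by a number, starts with MIR and ends with HG, or is GAS5. The rule found 110 of the 57163 genes of the count table, 29 snoRNA hosts and 81 microRNA hosts. RNA-seq was performed on 293T cells, a human line transformed from embryonic kidney, and cells were taken 48 h after they received a plasmid of the pLV[Exp]-EGFP-EF1A backbone, which carried the open reading frame of 1 TF behind the EF1A promoter. NRF1, E2F4, EGR1 and ZBTB7A were taken by their ChIP-seq rank from the CLB_TFs, a larger set that the study defined by motifs in promoters of conserved lncRNAs. HOXA11, RORA, TFCP2 and NKX2-8 served as control TFs. The control library is a blank by its label and an empty plasmid in the methods of the study. Each condition had 1 library, 9 libraries in all, so differences from the control library describe single libraries and lack a replicate check. The cells were bulk cultures, in which fewer cells that express a gene and less RNA per cell cannot be told apart.

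A snoRNA host is spliced, and the box C/D or box H/ACA snoRNAs released from its introns guide the chemical modification of ribosomal RNA. Many snoRNA hosts start with a pyrimidine tract like that of ribosomal protein mRNAs (a TOP start), and their spliced RNAs, which are often short-lived, are degraded by nonsense-mediated decay when translated. A microRNA host is the primary transcript, or the spliced remainder of it, from which Drosha and DGCR8 cut microRNA hairpins, and a mature microRNA recognises its target mRNAs mainly through its seed, bases 2 to 8. The libraries measured host transcripts, and mature snoRNAs and microRNAs were not measured.

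The start sites of the snoRNA hosts with a TOP start are shown first, because a TOP start is a known feature of such hosts. Each line runs 5′ to 3′ from 10 bases before to 30 bases from the RefSeq start site (GRCh38.p14), and capitals mark the pyrimidine run that begins at the start with C. SNHG5 lies on the minus strand at chr6:85678704-85678743, SNHG32 on the plus strand at chr6:31834906-31834945, SNHG19 on the minus strand at chr16:2155329-2155368, SNHG12 on the minus strand at chr1:28581844-28581883 and SNHG4 on the plus strand at chr5:139274091-139274130.
SNHG5: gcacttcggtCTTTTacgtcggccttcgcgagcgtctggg
SNHG32: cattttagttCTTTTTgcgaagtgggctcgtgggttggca
SNHG19: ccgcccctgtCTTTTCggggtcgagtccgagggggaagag
SNHG12: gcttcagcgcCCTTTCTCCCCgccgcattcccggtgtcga
SNHG4: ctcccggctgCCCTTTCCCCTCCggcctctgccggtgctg
A C followed by at least 4 pyrimidines stood at the annotated start of 6 of 25 snoRNA hosts with a RefSeq promoter (24%). It stood at 3 of 77 start sites of 61 microRNA hosts (3.9%) and at 1429 of 35116 start sites of 27305 genes in all (4.07%), since some genes have several start sites in that table. The remaining snoRNA host of the 6 was SNHG18, which had 0 counts in every library. Allowing the run to begin anywhere from 10 bases before to 15 bases after the annotated start, 15 snoRNA hosts (60%), 34 start sites of microRNA hosts (44.2%) and 33.5% of all start sites held one.

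The mature microRNAs of the hosts on which the results turn are shown with the seed in capitals, also from RefSeq (GRCh38.p14) and 5′ to 3′. MIR222HG, on chromosome X, holds miR-221 and miR-222, which share 1 seed. MIR503HG, also on chromosome X, holds miR-503. MIRLET7BHG on chromosome 22 and MIRLET7A1HG on chromosome 9 are named as hosts of the let-7 family, whose members shown again have 1 seed between them. The counted gene MIRLET7A1HG is 1 block of 1435 bases, and the annotation used lists 0 microRNAs inside it. Whether its counts come from the transcript that holds let-7 microRNAs was not tested. MIR7-3HG on chromosome 19 and MIR9-3HG on chromosome 15 hold a copy each of miR-7, best known from neural and endocrine tissue, and of miR-9, best known from the nervous system. MIR17HG on chromosome 13 is the host of the miR-17-92 cluster.
miR-221-3p: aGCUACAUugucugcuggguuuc
miR-222-3p: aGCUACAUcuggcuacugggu
miR-503-5p: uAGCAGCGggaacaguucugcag
let-7b-5p: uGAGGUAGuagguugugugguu
let-7a-5p: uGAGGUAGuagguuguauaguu
let-7f-5p: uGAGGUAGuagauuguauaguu
miR-7-5p: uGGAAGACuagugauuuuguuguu
miR-9-5p: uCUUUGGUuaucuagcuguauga
miR-17-5p: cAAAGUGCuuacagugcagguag
miR-20a-5p: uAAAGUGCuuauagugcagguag

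Libraries held 14177970 to 18915400 counts. Each inserted TF was highest in its own library, at 28.4 to 1182 times the control library. The lowest of these ratios belonged to TFCP2, of which the control library held 9812 counts, more than the 653 to 703 counts of the TF libraries without that insert. The part of this raised TFCP2 level in the ratios to the control library was not tested. Of the markers of the line, VIM had 964.5 to 1229 CPM and the neurofilament gene NEFM 297 to 488.6 CPM in the 9 libraries, where CPM is the count per 1e6 of the TMM-scaled library total. Of the 13 markers of other cell types, COL1A1 reached 38.8 CPM, COL3A1 4.13 CPM and the others at most 1.64 CPM, and HBB had 0 counts. The part of these levels in the results was not tested.

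snoRNA hosts were abundant and nearly all detected, whereas most microRNA hosts were close to silent. Of the snoRNA hosts, 25 had counts in every library and 3 had 0 counts in all, which allows up to 3 counts per library. The microRNA hosts with counts in every library numbered 31, and 25 had 0 counts throughout. A mean of at least 1 CPM was reached by 24 snoRNA hosts and 16 microRNA hosts. snoRNA hosts took 0.162% (NKX2-8) to 0.188% (NRF1) of the raw total of a TF library and 0.183% of that of the control library. microRNA hosts took 0.00892% (NKX2-8; exact 95% interval 0.00845 to 0.00941%) to 0.0146% (NRF1; 0.0140 to 0.0153%), against 0.0116% (0.0111 to 0.0120%) in the control library. All intervals cover counting error only. For microRNA hosts NKX2-8 also had the smallest share and NRF1 the largest per TMM-scaled total (0.00898% and 0.0136%, against 0.0119% in the control library). For snoRNA hosts the order depended on the scaling, and per TMM-scaled total the share was smallest in ZBTB7A (0.162%), 0.163% in NKX2-8 and 0.174% in NRF1, against 0.188% in the control library, the largest.

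Levels between genes were compared per length, as RPKM (CPM per kilobase of exon). This length covers all annotated exons of a gene, for example 3631 bases for GAS5, 3756 for SNHG1 and 342 for SNHG19. It can exceed the length of the spliced RNA, so the order of hosts depends on the annotation too, and that part was not tested. SNHG29, which took 29.1% of all host counts, led with 144 ± 8.55 RPKM (SD over the 9 libraries). SNHG5, host of the U50 snoRNAs, had 70.9 ± 3.90 RPKM and GAS5, the growth arrest-associated host of a series of box C/D snoRNAs, had 69.0 ± 6.04 RPKM. These 2 levels did not differ beyond their spread. SNHG6 followed with 49.3 ± 2.22 RPKM, SNHG1, host of the U22 and U25 to U31 snoRNA cluster, with 46.1 ± 5.76 RPKM and SNHG32 with 41.5 ± 3.08 RPKM, and again these neighbours overlapped. SNHG19 and SNHG8 had 32.9 ± 3.55 and 32.5 ± 3.49 RPKM. Exons of SNHG6 overlap genes on the opposite strand over 46.0% of their length and those of SNHG29 over 12.0%, and since no source used here gives the strand setting of the counting, both are uncertain to that extent. LRRC75A, the gene opposite SNHG29, had 876 counts in the E2F4 library, whereas the 7 other TF libraries had 64 to 114, against 84 in the control library.

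The highest microRNA host by RPKM, MIR503HG, had 8.17 ± 2.44 RPKM, below 13 snoRNA hosts. MIR210HG, host of the hypoxia-induced miR-210, had 4.91 ± 0.729 RPKM, MIR924HG 4.70 ± 0.336 RPKM and MIR222HG 4.46 ± 1.23 RPKM. MIR17HG had 3.55 ± 0.657 RPKM and MIR762HG 2.99 ± 0.539 RPKM. From MIR210HG to MIR762HG the ranges of 1 SD around the means of neighbours in this order overlapped. All hosts were measured in the same 9 libraries, so such overlap, here and among snoRNA hosts, does not give their order within a library. MIR762HG shares 56.4% of its exon length with genes on the opposite strand, among them BCL7C. BCL7C had 949 to 1881 counts per library, so the level of MIR762HG, with 77 to 115 counts, is uncertain too. The median coefficient of variation over the 9 libraries was 11.9% for the 24 snoRNA hosts and 17.6% for the 16 microRNA hosts at a mean of at least 1 CPM. Relative counting error is larger at low counts, and mean levels reached 542 CPM among snoRNA hosts but 13.7 CPM among microRNA hosts. The part of this in the medians was not tested.

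**Figure D1:**
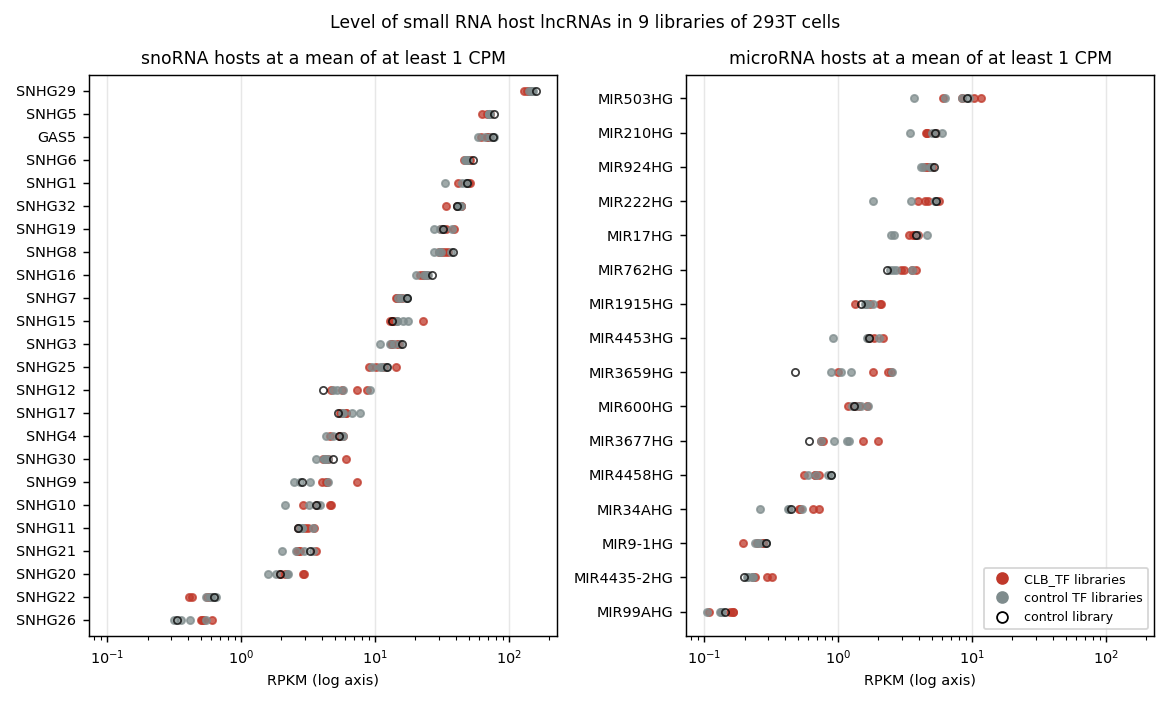
Level of the 24 snoRNA hosts (left) and 16 microRNA hosts (right) with a mean of at least 1 CPM, in RPKM on a log axis. Each point is 1 library (red, CLB_TF; grey, control TF; open black, control), and hosts run down in order of their mean. SNHG29 leads with a mean of 144 RPKM, and the highest microRNA host, MIR503HG, has a mean of 8.17 RPKM. Within their kinds, SNHG9 and SNHG12 and MIR3659HG and MIR3677HG are spread widest.

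To ask which hosts responded to each TF, each of the 8 TF libraries was compared with the control library. A host was counted as changed with a log2 fold change (log2FC, prior count of 2) of at least 1 in size and 1 CPM or more in whichever library was higher. Changes were mostly in microRNA hosts, with 12 hosts changed in at least 1 library, 10 of them microRNA hosts. Of those 10, MIR222HG and MIR503HG had 276 and 285 counts in the control library, and the others had at most 23. The part of counting error in this contrast between the kinds was not tested. For NRF1, 24 snoRNA and 21 microRNA hosts reached the minimum of 1 CPM. The numbers were 24 and 19 for E2F4, 24 and 18 for EGR1, ZBTB7A and TFCP2, and 23 and 19 for HOXA11. For RORA they were 24 and 17, and for NKX2-8 23 and 20. The background is the share of all genes that reached this minimum. The NRF1 library had 5 hosts that rose and none that fell, against a background of 8.24% of genes that rose and 0.235% that fell. In the E2F4 library 3 hosts rose and 1 fell (background 3.68% and 0.261%). The EGR1 library had 1 host that rose (2.5% of genes rose and 0.28% fell) and so had the ZBTB7A library (1.92% and 0.439%). In the HOXA11 library 1 host fell (1.17% rose and 0.34% fell), and no host changed in the RORA library (0.522% and 0.393%) or in the TFCP2 library (0.491% and 0.185%). The NKX2-8 library had the most, with 4 hosts that rose and 3 that fell, among 23 snoRNA and 20 microRNA hosts at the minimum, against 2.83% and 0.879% of genes. Whether the shares of hosts differ from the background was not tested.

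Of these calls, 1 each in the NRF1, E2F4 and NKX2-8 libraries was a snoRNA host. Among hosts at a mean of at least 1 CPM, the median log2FC of snoRNA hosts lay between −0.18 (ZBTB7A) and 0.13 (NRF1) in the 8 TF libraries. The median of microRNA hosts was 0.19 in the NRF1 library and −0.34 in the NKX2-8 library, while the median over all 13983 genes at that level was −0.04 and −0.03 in these libraries. Scaling by library totals in place of TMM moved the median of all genes by 0.15 in the NRF1 library.

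**Figure D2:**
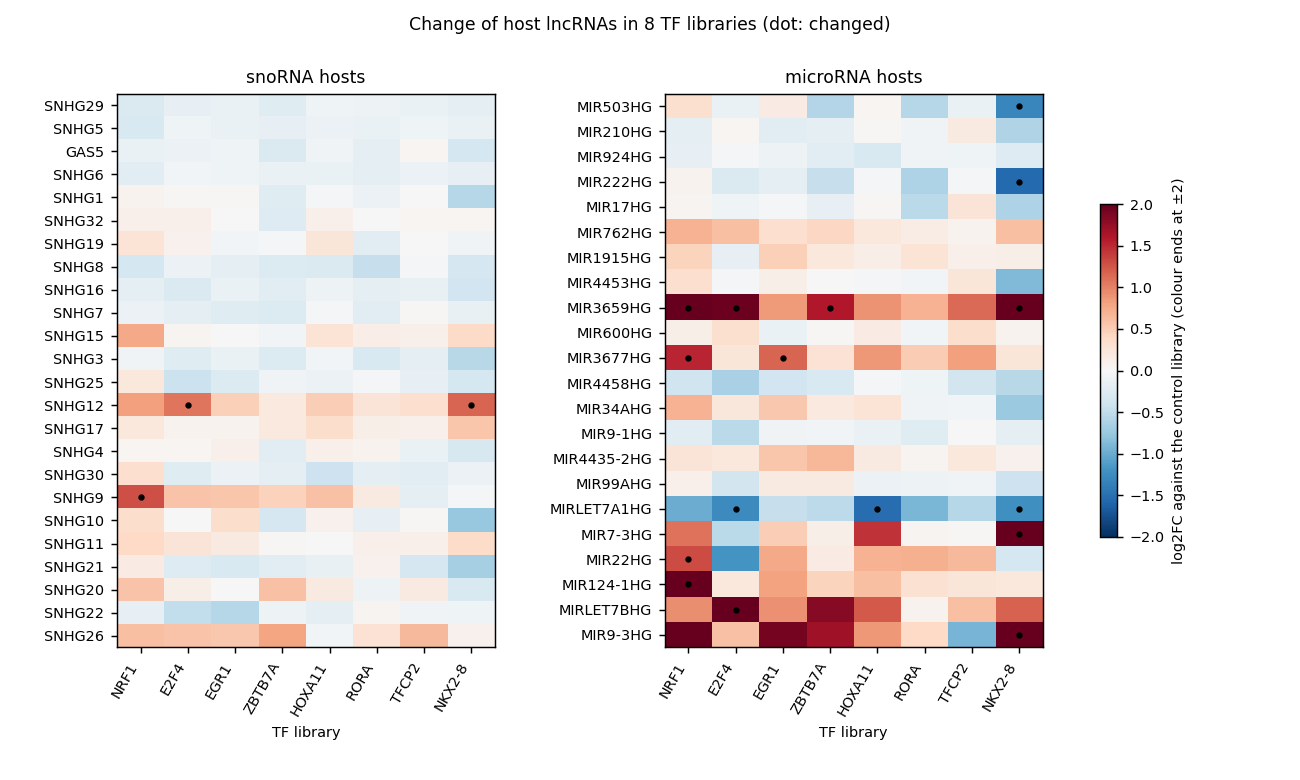
log2FC of each host (rows) in each TF library (columns) against the control library, for snoRNA hosts (left) and microRNA hosts (right) at a mean of at least 1 CPM or changed in a library. Red is higher and blue lower in the TF library, and black dots mark changed hosts. Most dots lie among microRNA hosts, with 5 changed hosts in the NRF1 column and 7 in the NKX2-8 column.

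SNHG12, a host of box H/ACA and box C/D snoRNAs with the 11-base pyrimidine run shown above, rose in the E2F4 and NKX2-8 libraries. It lies on the minus strand of chromosome 1, from 28905050 to 28909495 in GRCh37, the build of the count table. Its level was 24.6 CPM in the NRF1 library, 29.2 in E2F4, 19.2 in EGR1, 15.8 in ZBTB7A, 19.4 in HOXA11, 16.5 in RORA, 17.5 in TFCP2 and 31.2 in NKX2-8, against 13.8 CPM in the control library. All 8 TF libraries were thus above the control library, with NKX2-8, E2F4 and NRF1 highest. The ratio to the control library was 2.26 for NKX2-8 (95% interval 1.93 to 2.64) and 2.11 for E2F4 (1.81 to 2.46). With the control TF libraries as reference neither passed the 2-fold threshold.

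SNHG15, a host of a box H/ACA snoRNA, was highest in the NRF1 library. Its level was 83.1 CPM in the NRF1 library, 50.8 in E2F4, 49.1 in EGR1, 47.3 in ZBTB7A, 59.3 in HOXA11, 53.5 in RORA, 52.8 in TFCP2 and 64.2 in NKX2-8, against 49.0 CPM in the control library. The NRF1 library stood above all others, at 1318 counts against 902 in the control library and a ratio of 1.69 (1.56 to 1.85), under the 2-fold threshold. SNHG9, on chromosome 16, is a host whose annotated exons merge into 1 block. It passed that threshold in the NRF1 library, with 64 counts, the control library with 29, and a ratio of 2.56 (1.63 to 4.12). Its level was 4.04 CPM in the NRF1 library, 2.21 to 2.41 CPM in the other CLB_TF libraries and 1.37 to 2.44 CPM in the control TF libraries, against 1.58 CPM in the control library.

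GAS5 had 250.7 CPM in the NRF1 library, 252.1 in E2F4, 258.6 in EGR1, 223.9 in ZBTB7A, 260.4 in HOXA11, 239.6 in RORA, 282.2 in TFCP2 and 214.5 in NKX2-8, against 274.1 CPM in the control library. It was thus lowest in the NKX2-8 library, at a ratio of 0.782 (0.748 to 0.818). SNHG1 had 193.1 CPM in the NRF1 library, 186.7 in E2F4, 187.1 in EGR1, 155.2 in ZBTB7A, 179.4 in HOXA11, 168.5 in RORA, 182.1 in TFCP2 and 124.2 in NKX2-8, against 183.6 CPM in the control library. The NKX2-8 library was again lowest, at a ratio of 0.677 (0.639 to 0.716). Neither host changed 2-fold in any library. The most abundant hosts SNHG29 and SNHG5 were lowest in the NRF1 library, with 489.6 and 175.0 CPM, against 600.2 and 216.2 CPM in the control library.

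MIR222HG, the host of miR-221 and miR-222, which are known to target the cell cycle inhibitor CDKN1B, fell in the NKX2-8 library. The level of MIR222HG was 15.7 CPM in the NRF1 library, 12.3 in E2F4, 13.1 in EGR1, 10.8 in ZBTB7A, 14.6 in HOXA11, 9.73 in RORA, 14.8 in TFCP2 and 5.04 in NKX2-8, against 15.01 CPM in the control library. The NKX2-8 library was lowest, with 76 counts against 276 in the control library and a ratio of 0.336 (0.257 to 0.435). The next lowest libraries were RORA and ZBTB7A.

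MIR503HG, the host of miR-503, a microRNA of the extended miR-16 family that represses cell cycle genes, also fell in the NKX2-8 library. Its level was 19.4 CPM in the NRF1 library, 14.2 in E2F4, 17.3 in EGR1, 10.2 in ZBTB7A, 16.0 in HOXA11, 10.5 in RORA, 14.1 in TFCP2 and 6.17 in NKX2-8, against 15.5 CPM in the control library. The 3 lowest libraries were the same as for MIR222HG, and the ratio in the NKX2-8 library was 0.398 (0.312 to 0.505). MIR17HG, whose cluster is best known as an oncogenic MYC target, had 8.63 CPM in the NKX2-8 library and 9.12 CPM in the RORA library, against 13.3 CPM in the control library, and 11.9 to 15.97 CPM in the 6 other TF libraries. Its ratio in the NKX2-8 library was 0.650 (0.521 to 0.808), short of the 2-fold threshold.

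Other microRNA hosts rose in the NKX2-8 library. MIR7-3HG had 34 counts (2.26 CPM) in the NKX2-8 library and 0 to 6 counts in the 7 other TF libraries, against 1 count in the control library, a ratio of 41.5 with a counting interval of 6.96 to 1687. MIR9-3HG had 15 counts in the NRF1 library, 4 in E2F4, 12 in EGR1, 9 in ZBTB7A, 5 in HOXA11, 3 in RORA, 0 in TFCP2 and 19 in NKX2-8, against 2 counts in the control library. The NKX2-8 library was highest, at a ratio of 11.6 (2.80 to 102.7), and the NRF1 and EGR1 libraries came next. MIR3659HG rose in 4 TF libraries, NRF1, E2F4, ZBTB7A and NKX2-8, with 27, 29, 18 and 26 counts, against 6 counts in the control library, which was the lowest of the 9.

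MIRLET7BHG and MIRLET7A1HG, both named as let-7 hosts, differed in their pattern. The annotation used lists 0 microRNAs inside the counted gene MIRLET7A1HG. Of other members that hold a let-7 microRNA, MIRLET7IHG (6 to 18 counts) and MIR99AHG (18 to 30 counts) were not counted as changed. MIRLET7BHG had 5 counts in the NRF1 library, 33 in E2F4, 5 in EGR1, 10 in ZBTB7A, 7 in HOXA11, 2 in RORA, 4 in TFCP2 and 6 in NKX2-8, against 2 counts in the control library. It rose in the E2F4 library alone, at a ratio of 16.99 (4.34 to 146.1). MIRLET7A1HG had its highest count, 23, in the control library and 6 to 14 counts in the TF libraries, and it fell in the E2F4, HOXA11 and NKX2-8 libraries at ratios of 0.358, 0.285 and 0.371. Exons of MIRLET7A1HG overlap those of MIRLET7DHG on the opposite strand over 78.7% of their length, where MIRLET7DHG had at most 1 count in a library.

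In the NRF1 library 3 further microRNA hosts rose. MIR124-1HG, host of the neuronal miR-124, had 27 counts (1.70 CPM) in the NRF1 library and 5 to 9 counts in the 7 other TF libraries, against 5 counts in the control library, a ratio of 6.26 (2.38 to 20.8). Its exons overlap an unnamed lncRNA on the opposite strand over 77.8% of their length, and that gene had 0 counts in every library. MIR3677HG, which overlaps RNPS1 on the opposite strand over 11.3% of its exons, rose in the NRF1 and EGR1 libraries with 31 and 24 counts, against 11 in the control library. RNPS1 had 4796 to 6737 counts per library, so without a known strand setting the small counts of MIR3677HG are uncertain. MIR22HG, a host known to respond to cell stress, had 24 counts in the NRF1 library and 3 (E2F4) to 16 counts in the 7 other TF libraries, against 10 in the control library. Its ratio was 2.78 (1.28 to 6.52) for NRF1.

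**Figure D3:**
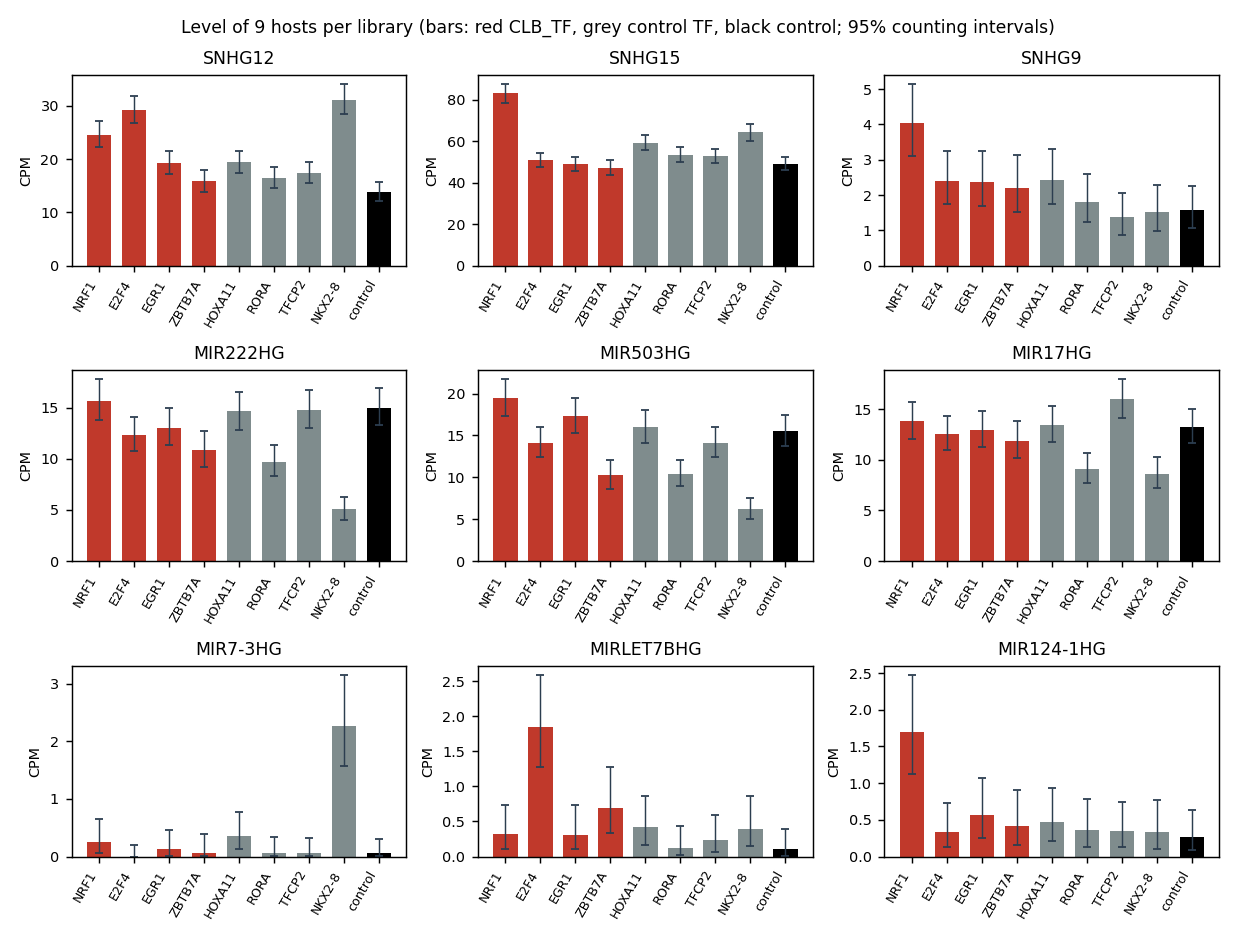
Level in CPM (linear axes from 0) of 9 hosts in the 8 TF libraries and the control library. Bars are single libraries (red, CLB_TF; grey, control TF; black, control) and error bars are exact 95% intervals for counting error only. SNHG15 is highest in NRF1 at 83.1 CPM, MIR222HG and MIR503HG are lowest in NKX2-8 at 5.04 and 6.17 CPM, and MIR7-3HG, MIRLET7BHG and MIR124-1HG each stand out in 1 library at 2.26, 1.85 and 1.70 CPM.

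The control library lay at the edge of the 9 for several of these hosts, so the calls were also made against the geometric mean of the control TF libraries, each control TF being left out of its own reference. With this reference 2 hosts changed in the NRF1 library (SNHG9 and MIR124-1HG), 1 in E2F4 (MIRLET7BHG) and 5 in NKX2-8 (MIR222HG, MIR503HG, MIR7-3HG, MIR9-3HG and MIR3659HG), all of which had also changed against the control library. The call of MIR3659HG in NKX2-8 rests on leaving that library out of its reference, at a log2FC of 1.14, and with all 4 control TF libraries it was 0.85, close to 0.83 in the NRF1 library. None changed in the 5 other TF libraries. SNHG12, MIRLET7A1HG, MIR22HG and MIR3677HG were no longer called in any library.

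Whether a library stood apart by more than the spread between TF libraries was tested by edgeR's quasi-likelihood test of each TF library against the 7 others, with Benjamini-Hochberg adjustment over 17158 genes. The lone library is assumed to vary like the other 7. Of the 110 members, 56 passed the low-count filter, which asks for 0.607 CPM in at least 1 TF library, and 40 of them reached it in all 8. MIR124-1HG and SNHG31 reached it in the NRF1 library alone and MIR7-3HG in the NKX2-8 library alone, so these had to be high there to be tested. In the NRF1 library 2 hosts were called, both higher, against a background of 2.18% of genes called. Of the 56 hosts, 7 had an unadjusted p under 0.05 in edgeR's test, 6 higher and 1 lower, beside 18.0% of all genes. SNHG15 had a log2FC of 0.62 ± 0.13 (SE) with an adjusted p of 0.0412, and was called under the 4 alternatives too (adjusted p of 0.0136 to 0.0392). MIR124-1HG had 2.06 ± 0.41 with an adjusted p of 0.0323, which gives no support of its own because of the filter, and 0.0482 without the filter. SNHG9 in the NRF1 library had a log2FC of 0.99 ± 0.32 and an adjusted p of 0.133 in edgeR's test.

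In the E2F4 library no host was called, against 2.73% of genes, and 2 of 56 had an unadjusted p under 0.05, beside 8.24% of all genes. MIRLET7BHG came nearest, with a log2FC of 2.37 ± 0.60 and an adjusted p of 0.0614 in edgeR's test. The adjusted p was 0.0465 with the control library added to the 7 others and 0.0414 without the low-count filter. SNHG12 in the E2F4 library had a log2FC of 0.50 ± 0.27 and an adjusted p of 0.762, with the NKX2-8 and NRF1 libraries also high.

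In the NKX2-8 library no host passed the adjusted threshold in edgeR's test, against 0.035% of genes, and 13 of the 56 hosts had an unadjusted p under 0.05, 10 lower and 3 higher with MIR7-3HG among them, beside 12.5% of all genes. MIR222HG had a log2FC of −1.36 ± 0.27 with an adjusted p of 0.135, and MIR7-3HG 4.04 ± 0.81 with the same adjusted p, which gives no support of its own because of the filter. SNHG1 had −0.52 ± 0.11 with an adjusted p of 0.139, and MIR503HG −1.23 ± 0.34 with an adjusted p of 0.1995. The other hosts on the lower side were MIR4453HG, SNHG10, MIR34AHG, MIR210HG, MIR17HG, SNHG3 and SNHG16, named here after their values were seen, and SNHG12 and SNHG17 were on the higher side with MIR7-3HG. Without the low-count filter MIR222HG and MIR7-3HG were called, with adjusted p of 0.0475 and 0.0356.

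No host was called in the EGR1 library (0.216% of genes called), the ZBTB7A library (0.00583%), the HOXA11 library (0.0117%), the RORA library (0.00583%) or the TFCP2 library (0.0117%). The number of hosts with an unadjusted p under 0.05 in edgeR's test was 0, 1, 1, 0 and 1 in these libraries, beside 2.65%, 2.21%, 1.58%, 1.52% and 0.973% of all genes.

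The position of each library among the 9 was counted for the 40 hosts that averaged 1 CPM or more. The NKX2-8 library was lowest of the 9 for 15 hosts (8 of 24 snoRNA hosts and 7 of 16 microRNA hosts), against 20.5% of all genes at that level. The NRF1 library was highest for 15 hosts (9 snoRNA hosts and 6 microRNA hosts), against 16.2% of all genes. It was lowest for 3 hosts, against 25.8% of all genes. The E2F4 library was highest for 0 of the 40 hosts and for 15.8% of all genes. These counts are a description, with no test, as the hosts of 1 library are not independent.

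**Figure D4:**
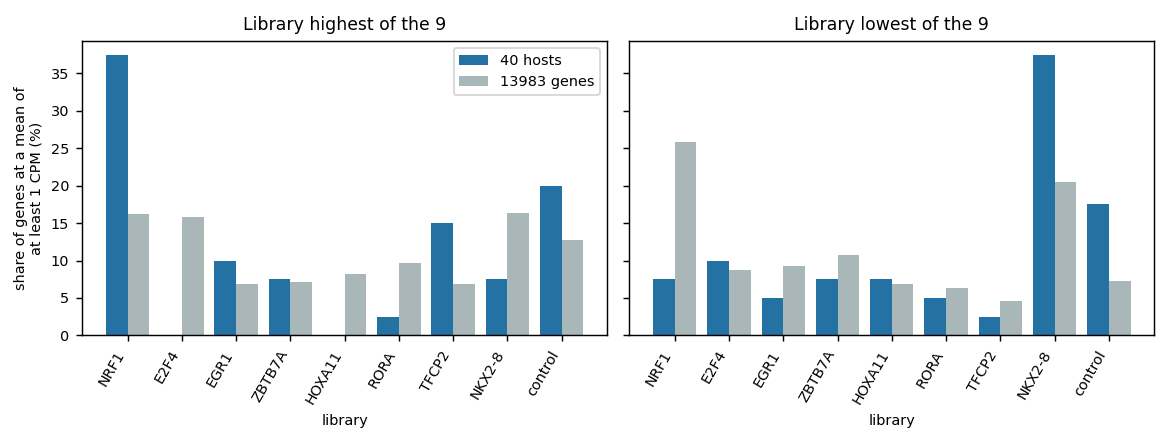
Share of the 40 hosts (blue) and of all 13983 genes (grey) at a mean of at least 1 CPM for which each library is the highest (left) or the lowest (right) of the 9, in percent. For the hosts the tallest bars are NRF1 on the left and NKX2-8 on the right, at 15 of 40 hosts each, against 16.2% and 20.5% of all genes.

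CLB_TF and control TF libraries were compared as classes to ask whether the TFs of the first class move these hosts together, with the 4 TFs of a class standing in for replicates. Of 15012 genes tested 0.04% were called by edgeR's quasi-likelihood test, and of the 47 hosts tested none was called, with 2 at an unadjusted p under 0.05, beside 10.2% of all genes. DESeq2 also called 0 hosts. The 2 hosts, of which MIR34AHG is named after its values were seen, were MIR34AHG, host of the p53-induced miR-34a, with a log2FC of 0.55 ± 0.22 and an adjusted p of 0.428, and SNHG9, with 0.63 ± 0.27 and an adjusted p of 0.456. MIR34AHG had 6.31 CPM in the NRF1 library, 4.53 in E2F4, 5.68 in EGR1 and 4.42 in ZBTB7A, against 4.70 in HOXA11, 3.68 in RORA, 3.72 in TFCP2 and 2.26 in NKX2-8. The classes overlapped, since HOXA11 lay above E2F4 and ZBTB7A. Without the low-count filter 1 host was called, MIR7-3HG, with a log2FC of −2.53 and an adjusted p of 0.00566, with 34 counts in the NKX2-8 library and at most 6 in any other.

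Consensus letters of 3 of the inserted TFs were searched on both strands in the 300 bases of each RefSeq promoter, 250 before and 50 after the start. The NRF1 core, CGCATGCG or CGCACGCG, was found for 3 of 25 snoRNA hosts (12%; SNHG1, SNHG3 and SNHG8) and at 4 of 77 start sites of microRNA hosts (5.19%), against 4.65% of all start sites. SNHG1, SNHG3 and SNHG8 did not change 2-fold in the NRF1 library. Their levels there were 193.1, 62.1 and 27.6 CPM, against 183.6, 65.4 and 35.0 CPM in the control library. The part of the core in these levels was not tested, and the promoters of SNHG15 and MIR124-1HG were not analysed here. The E2F core, TTTCCCGC or TTTGGCGC, was found for 1 snoRNA host and 2 microRNA hosts (2.27% of all start sites), and the EGR1 core, GCGTGGGCG or GCGGGGGCG, for 1 and 2 (5.77% of all start sites). A match describes these letters in this window and is not a site of binding.

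Genes of the machinery that acts on these transcripts did not change 2-fold in any TF library. This held for the 4 box C/D core proteins (FBL, NOP56, NOP58 and SNU13), the 4 box H/ACA core proteins (DKC1, GAR1, NHP2 and NOP10), 10 snoRNP assembly factors, 10 genes of microRNA processing with DROSHA, DGCR8 and DICER1 among them, and 10 genes of nonsense-mediated decay. None of them was called in edgeR's test of 1 TF library against the 7 others. Of 18 protein-coding snoRNA hosts, 0 changed 2-fold and 1 was called, TPT1, which was lower in the NRF1 library (1173.9 CPM, against 1557 CPM in the control library, adjusted p of 0.0239 in edgeR's test against the 7 other TF libraries).

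Of the host lncRNAs outside the naming rule, the 4 snoRNA hosts (DANCR, EPB41L4A-AS1, MEG8 and ZFAS1) did not change. Of 6 microRNA hosts, PVT1 rose in the NRF1 library with 182 counts and in the NKX2-8 library with 168 counts, against 99 in the control library. H19, the imprinted host of miR-675, rose in the NKX2-8 library with 66 counts, against 33 in the control library. Neither was called in edgeR's test. Of 10 p53-induced genes only GDF15 changed, and it rose in the EGR1, RORA, TFCP2 and NKX2-8 libraries. Of 10 immediate early genes, EGR1 itself and JUNB rose in the EGR1 library, and FOSB rose in the NRF1 and HOXA11 libraries.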

How the data were processed

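RNA-seq of 293T cells comprised 1 library per condition. Per the labels, the authors used FastQC 0.11.2, STAR 2.6.0c (GRCh37) and featureCounts 1.6.3. The deposited table holds raw counts for 57163 genes and the exon length of each gene. The labels name TRIzol and a directional kit, the methods a miRNeasy kit. Symbols came from GENCODE v44lift37, which named 35408 of 36202 Ensembl IDs. MIR3171HG and MIR34BHG fit the rule and were not analysed here.

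TMM scaling and tests were run in R 4.3.3 with edgeR 4.0.16. Ratios have exact conditional binomial intervals at 95%. Quasi-likelihood tests used filterByExpr and an adjusted p threshold of 0.05, and were tested on simulated data. The SE is the log2FC over the root of the F statistic. Alternatives were library totals, DESeq2 1.42.0 size factors or Wald test, another reference, other minimum levels, prior counts and folds, no filter, and leaving out libraries.

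Members, lists and tests were chosen with earlier results of these data known. Hosts named were the most abundant by RPKM (8 snoRNA hosts, 6 microRNA hosts), those called in a test or changed in at least 2 TF libraries, the 4 snoRNA hosts and 6 microRNA hosts with the largest change among those changed in 1, and MIR17HG, MIRLET7BHG, MIR22HG, GAS5, SNHG1 and SNHG12.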

Additional observations from a re-analysis of the deposited data

Results flagged for a closer look

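Each named host was examined within the 4 CLB_TF libraries and within the 4 control TF libraries for 1 library far from the other 3. In 7 of 50 such groups the gap to the nearest library, over the whole range, was above Dixon's 95% critical value for 4 samples, and chance gives about 1 in 20. Hosts named for a change or call in 1 library were chosen for such a gap, so the number of flags is no evidence beyond their values. Libraries of a class carry different TFs, so they are not replicates of 1 condition.

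The NRF1 library stood apart among the CLB_TF libraries for SNHG15, at 83.1 CPM against 47.3 to 50.8 CPM in the others, for SNHG9, at 4.04 CPM against 2.21 to 2.41 CPM, and for MIR124-1HG, at 1.70 CPM against 0.336 to 0.562 CPM. MIR210HG was apart in the E2F4 library, at 12.5 CPM against 10.4 to 10.7 CPM, a small difference. SNHG1 was apart in the ZBTB7A library, at 155.2 CPM against 186.7 to 193.1 CPM. Among the control TF libraries, NKX2-8 stood apart for MIR7-3HG, at 2.26 CPM against 0.0573 to 0.357 CPM, and for MIR22HG, at 0.398 CPM against 0.916 to 0.967 CPM.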

How the results depend on the processing

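The number of changed hosts moved by over 1.5 times under several choices. With the control TF libraries as reference it was 2 for NRF1, 1 for E2F4 and 0 for EGR1, ZBTB7A and HOXA11. A minimum of 0.5 CPM gave 2 for EGR1, 3 for ZBTB7A and 1 for TFCP2, and a minimum of 5 CPM gave 0 for NRF1, EGR1, ZBTB7A and HOXA11, 1 for E2F4 and 3 for NKX2-8. A prior count of 0.5 gave 1 for RORA and a prior count of 5 gave 0 for EGR1. A fold of 1.5 gave 14 for NKX2-8, 12 for NRF1, 6 for HOXA11, 4 for ZBTB7A, 3 for TFCP2 and 2 each for EGR1 and RORA. Other scalings moved no count by that much.

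In the tests of 1 TF library against the 7 others, leaving out the low-count filter gave 1 call for E2F4 and 2 for NKX2-8, and adding the control library gave 1 for E2F4. Without the filter the CLB_TF comparison called 1 host, and leaving out each TF library in turn gave 0 calls each time. The cause of these shifts was not tested. No paired analysis was possible because each condition had 1 library. Hosts under about 1 CPM had few counts, so that a change of 2-fold there was often not detectable at this depth.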
